A study of Mus musculus with 12 samples.

Results

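The comparison set 4 bulk RNA-seq libraries of mouse tibialis anterior, the fast muscle at the front of the shin, that had received a tissue-derived extracellular matrix gel against 4 libraries of the same muscle labelled uninjured control. The libraries were chosen by their labels, and they are 8 of the 12 in the series. The gel was given as 50 µl at 6 mg/ml in the left leg. The other 4 libraries come from right legs that received 50 µl of phosphate-buffered saline (PBS), the vehicle, and they appear here only as levels beside the gel values, outside the fit. The series title speaks of acute and of chronic disuse injury. The kind of injury behind these libraries, the time after it, the strain, sex and age of the mice, and the treatment of the uninjured legs are not stated in the labels, so injury, injection and gel cannot be told apart in this comparison. Nothing in the labels says whether libraries of a group came from separate animals, so the p-values measure only the spread between these libraries.

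After injury, muscle fibres are cleared by macrophages, and resident stem cells called satellite cells divide, differentiate under the factor myogenin and fuse into new fibres. New fibres at first make embryonic and neonatal myosins, and fibroblast-like cells lay down collagen around them. Separately from repair, muscle mass is set by a balance in which glucocorticoid hormone, FOXO factors and myostatin favour loss, while insulin-like growth factors favour gain.

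Promoters of a few genes that carry the results below are shown first, from RefSeq on build GRCm38.p6, each as the bases just before the gene's listed start, read 5′ to 3′ on the gene's own strand, so that the motifs of each gene group can be seen. In the first set, Myog encodes myogenin, and Chrng and Chrna1 encode subunits of the muscle acetylcholine receptor. Capitals mark the E-box CANNTG, the motif that myogenin and its relatives bind, searched on both strands over 300 bases (250 before to 50 after the start). The stretches are at chr1:134289854-134290003, plus strand for Myog, chr1:87205661-87205810, plus strand for Chrng and chr2:73580339-73580488, minus strand for Chrna1.
Myog: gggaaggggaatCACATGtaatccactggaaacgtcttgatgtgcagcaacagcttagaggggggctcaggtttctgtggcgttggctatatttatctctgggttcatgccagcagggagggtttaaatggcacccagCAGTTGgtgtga
Chrng: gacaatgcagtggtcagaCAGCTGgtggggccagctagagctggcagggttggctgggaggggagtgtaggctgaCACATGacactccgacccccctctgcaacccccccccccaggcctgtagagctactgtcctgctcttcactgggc
Chrna1: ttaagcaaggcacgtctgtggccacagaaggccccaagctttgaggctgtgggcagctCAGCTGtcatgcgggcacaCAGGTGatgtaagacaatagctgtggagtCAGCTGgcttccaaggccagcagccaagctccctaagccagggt
An E-box lay in 10 of the 10 neuromuscular junction genes and in 5 of the 7 myogenic genes that have a listed promoter, against 75.0% of all 27025 genes with one, so a match says little by itself.

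The second set shows Mt2, a metallothionein that binds zinc and copper, with capitals on the core of the metal response element, TGCNCNC, on either strand (chr8:94172418-94172617, plus strand).
Mt2: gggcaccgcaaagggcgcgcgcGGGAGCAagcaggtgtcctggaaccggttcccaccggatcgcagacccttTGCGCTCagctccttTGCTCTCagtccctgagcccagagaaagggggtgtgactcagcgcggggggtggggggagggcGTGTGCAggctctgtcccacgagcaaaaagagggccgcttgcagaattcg
This core was present near the start of both metallothionein genes measured, Mt1 and Mt2, and in 53.6% of all genes.

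The third set shows Ifit1, Isg15 and Oas1a, genes switched on by interferon, with capitals on the core of the interferon-stimulated response element, in which GAAA is repeated after a gap of 2 bases, on either strand. Matches in Isg15 and in Oas1a overlap one another and are drawn as 1 run. The stretches are at chr19:34640689-34640888, plus strand for Ifit1, chr4:156200819-156201018, minus strand for Isg15 and chr5:120907526-120907725, minus strand for Oas1a.
Ifit1: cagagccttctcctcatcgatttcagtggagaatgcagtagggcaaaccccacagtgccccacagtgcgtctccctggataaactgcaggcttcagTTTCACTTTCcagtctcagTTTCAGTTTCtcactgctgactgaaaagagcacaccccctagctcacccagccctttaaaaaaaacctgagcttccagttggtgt
Isg15: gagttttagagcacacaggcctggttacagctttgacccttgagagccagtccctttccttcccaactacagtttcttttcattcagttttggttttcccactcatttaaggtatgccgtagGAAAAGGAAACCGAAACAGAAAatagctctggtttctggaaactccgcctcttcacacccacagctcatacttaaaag
Oas1a: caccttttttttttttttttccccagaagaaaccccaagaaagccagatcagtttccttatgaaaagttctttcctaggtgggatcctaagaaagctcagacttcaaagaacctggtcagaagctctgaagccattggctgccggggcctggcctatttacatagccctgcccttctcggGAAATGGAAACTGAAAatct
This motif lay in 10 of the 17 interferon-list genes with a listed promoter (58.8%), against 3.99% of all genes. A match is a description of the letters and not a measured binding site.

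The gel libraries held 15626086 to 22182483 counted reads and the uninjured libraries 15970781 to 18787964, over 26264 gene symbols, of which 13169 had enough reads to be tested. Between 26.0% and 34.2% of reads fell on the 10 most abundant genes of a library. Gel library 3 was far from the rest of its group, so findings are given with it and without it. Where a gene has 1 log2 fold change below, the value is from all 8 libraries, and its call was also made without gel library 3 unless the text says otherwise. Levels are in CPM, counts scaled to a library of 1000000 reads. The first principal component of log2 CPM held 63.0% of the variance, and on it gel libraries 1, 2 and 4 scored -51.1, -67.7 and -74.8 and the uninjured libraries 36.3 to 53.0. Gel library 3 scored 13.1 there, and -58.8 on the second component, where the other 7 libraries scored -5.27 to 20.7. The muscle label held in all 8 libraries: Ckm, the creatine kinase of muscle fibres, was at 8502 to 11842 CPM in the gel libraries and 16429 to 18436 CPM in the uninjured ones.

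**Figure D1:**
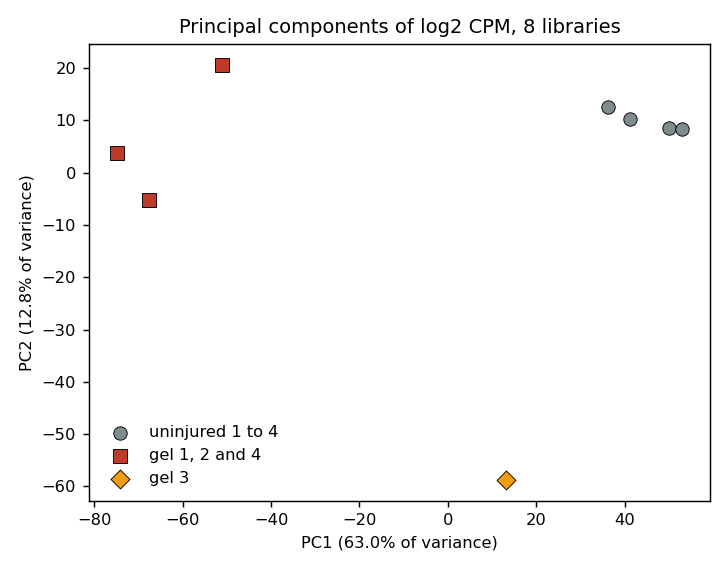
First and second principal components of log2 CPM for the 8 libraries, with the percent of variance on each axis. The 4 uninjured libraries (circles) lie together, gel libraries 1, 2 and 4 (squares) lie at -51.1 to -74.8 on the first component, and gel library 3 (diamond) lies at 13.1 on the first and -58.8 on the second.

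Over all genes, 1603 were higher in the gel libraries and 1371 lower at an edgeR adjusted p under 0.05, which is 12.2% and 10.4% of the genes tested. Of these, 1070 of the rises and 327 of the falls were at least 2-fold. Upper quartile scaling in place of the TMM (trimmed mean) scaling gave 1878 rises and 1001 falls, so that 65.2% of the called genes rose in place of 53.9%. For 23.7% of genes tested, all 4 gel libraries lay outside the range of the 4 uninjured ones on the same side. Without gel library 3, 13669 genes were tested, and 2880 rose (21.1%) and 2712 fell (19.8%), with no overlap for 45.3%. These shares of all genes are to be read beside every list count below. Of the 1603 rises, 1587 were also called without gel library 3 and make up 55.1% of the rises called then. Of the 1371 falls, 1364 were also called without it and make up 50.3% of those falls, and no gene was called in opposite directions. Among the 242 genes singled out by the naming rule that were called with all 8 libraries, 241 were also called without gel library 3, the exception being Rgs5. Leaving out gel library 3 raised the counts, while leaving out any other library lowered them (to 889 rises and 698 falls without uninjured library 3).

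The calls differ in how far they rest on single libraries. Of 100 called genes that the naming rule takes and that are given with values in this section, 69 kept their call in all 7 fits that left out 1 library other than gel library 3, and with limma voom. The call was lost in at least 1 of those 7 fits for Ccl2, Col1a1, Col3a1, Csf3r, Flt1, Hk1, Hk2, Insr, Irs2, Jph2, Lcn2, Neb, Oasl2, Postn, Ppargc1a, Psmd4, Rgs5, Rrm2, Sln, Tap1 and Tcap, and with limma voom only for Adgre1, Atp6v0d2, C3ar1, Ctss, Cybb, Gpnmb, Itgax, Mki67, Trem2 and Vcan. The 100 leave out called genes mentioned without values. Of these, Hey1, Lama5, Hsf1, Hspa8, Ly6a, Gsn, Ppard and Slc16a3 also lost their call in at least 1 of those 7 fits. Genes under Other observations are left out as well, and losses among those that the naming rule takes are given there. Beside a list count, the left-out range is the lowest to highest count over the same 7 fits. It is given for many of the counts that it moves by more than 1.5 times, so a count without a range need not be stable.

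Where gel library 3 lay was different for different genes. Of the 2880 genes that rose in gel libraries 1, 2 and 4, gel library 3 was above all 4 uninjured libraries for 1286 (44.7%), within their range for 1069 (37.1%) and below them for 525 (18.2%). Of the 2712 genes that fell, it was below the uninjured range for 1617 (59.6%), within it for 805 (29.7%) and above it for 290 (10.7%). Over all genes tested, these shares were 28.8% above, 37.8% within and 33.4% below.

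**Figure D2:**
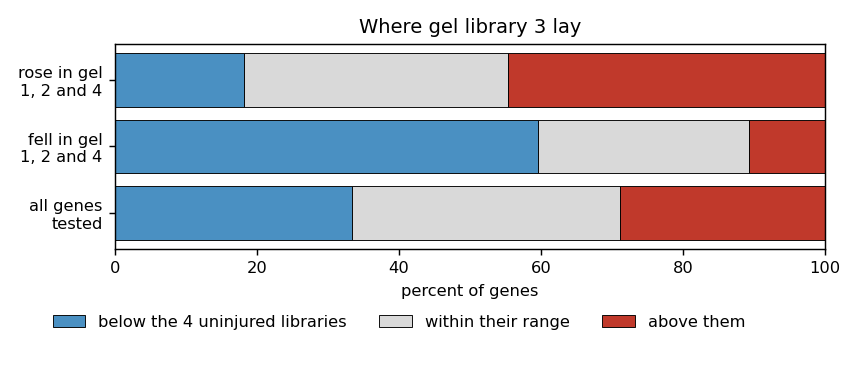
Percent of genes for which gel library 3 lay below, within or above the range of the 4 uninjured libraries, for the 2880 genes that rose and the 2712 that fell in gel libraries 1, 2 and 4 and for all 13669 genes tested without gel library 3. It was above the uninjured range for 44.7% of the rises and below it for 59.6% of the falls.

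All 4 gel libraries shared a fall in genes that glucocorticoid hormone is known to induce. Of 21 such genes tested, 17 fell, against 10.4% of all genes, and none rose, with a median log2 fold change of -1.57 against -0.00 over all genes. When gel library 3 was left out, 17 fell, against 19.8% of all genes, and 1, Angptl4, rose. In 15 of the 21 the groups did not overlap, against 23.7% of all genes, and gel library 3 was below the uninjured range in 15. The mean log2 CPM of the list, less its mean over the uninjured libraries, was -1.57, -1.69 and -1.64 in gel libraries 1, 2 and 4, -1.19 in gel library 3 and -0.54 to 0.28 in the uninjured ones.

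Fkbp5, a co-chaperone that binds the glucocorticoid receptor, held 7.77, 7.93, 11.1 and 6.89 CPM in gel libraries 1 to 4 and 58.4, 91.3, 97.3 and 99.9 CPM in uninjured libraries 1 to 4. The gel libraries were all below every uninjured one by a wide margin, and uninjured library 1 was the lowest of its group. The log2 fold change (gel over uninjured, ± SE throughout) was -3.37 ± 0.21 with an edgeR adjusted p of 7.96e-05, and -3.54 ± 0.19 without gel library 3 (adjusted p = 1.07e-07). In the PBS libraries Fkbp5 was at 9.09 to 17.7 CPM.

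Zbtb16, a zinc finger repressor, held 22.6, 17.6, 34.2 and 22.8 CPM in the gel libraries and 136, 148, 174 and 171 CPM in the uninjured ones. Again no gel library reached the uninjured range, although gel library 3 was the highest of the 4 gel libraries. Its log2 fold change was -2.69 ± 0.20 (edgeR adjusted p = 0.000123) and -2.92 ± 0.14 without gel library 3 (adjusted p = 2.65e-08). Map3k6, a stress kinase, fell by a log2 fold change of -3.11 ± 0.33, Cebpd, a transcription factor of the stress response, by -2.25 ± 0.22 and Arrdc2, an arrestin-like protein, by -2.71 ± 0.54, each in all 4 gel libraries. The receptor gene itself, Nr3c1, was at 38.9 to 49.6 CPM in the gel libraries and 39.8 to 45.1 CPM in the uninjured ones, with a log2 fold change of 0.06 ± 0.11 (edgeR adjusted p = 0.731). Dusp1 and Errfi1 did not pass the test either.

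Genes that drive muscle wasting fell with them. Of 18 genes on the atrophy list, 15 fell, the same number without gel library 3, and none rose, with a median log2 fold change of -1.24 (-1.52 without gel library 3). Among all genes 10.4% fell, and 19.8% without gel library 3. In gel library 3, 15 of the 18 were below the uninjured range. The atrophy and glucocorticoid lists share 6 genes (Klf15, Cebpd, Cebpb, Ddit4, Mt1 and Mt2). Trim63 encodes MuRF1, a ubiquitin ligase that marks myosin for breakdown. It held 51.9, 50.0, 68.6 and 55.4 CPM in the gel libraries and 134, 206, 216 and 159 CPM in the uninjured ones, so that the groups were well separated (log2 fold change -1.66 ± 0.18, edgeR adjusted p = 0.000575). Leaving out gel library 3 gave -1.79 ± 0.16 (edgeR adjusted p = 4.13e-06), and the PBS libraries held 65.9 to 109 CPM.

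Fbxo32, the gene of the ligase atrogin-1, was at 54.9, 52.7, 92.6 and 53.5 CPM in the gel libraries and 132, 180.0, 234 and 183 CPM in the uninjured ones. Of the gel libraries, the third was well above the other 3 but still below every uninjured library. Its log2 fold change was -1.52 ± 0.23 (edgeR adjusted p = 0.00243) with it and -1.78 ± 0.16 (adjusted p = 5.57e-06) without it. Foxo1, a factor that turns on both ligases, fell by a log2 fold change of -2.04 ± 0.22. Mstn, which encodes myostatin, the main inhibitor of muscle growth, held 2.47, 7.55, 6.23 and 5.72 CPM in the gel libraries, 18.5, 15.5, 17.2 and 15.3 CPM in the uninjured ones and 11.3 to 14.5 CPM with PBS. Here gel library 3 was in the middle of its group, and the log2 fold change was -1.59 ± 0.27 (edgeR adjusted p = 0.00406; -1.66 ± 0.29 without gel library 3, adjusted p = 0.000891).

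Both metallothioneins fell as well. Mt1 was at 118, 206, 134 and 205 CPM in the gel libraries and 347, 745, 520.3 and 452 CPM in the uninjured ones, and Mt2 at 50.2, 101, 62.6 and 122 and 189, 422, 324 and 219 CPM. All gel libraries were below all uninjured ones, with gel library 3 inside the gel range for both genes. The PBS libraries were lower still, at 31.8 to 58.0 CPM for Mt1 and 6.08 to 22.6 CPM for Mt2. Their log2 fold changes were -1.64 ± 0.26 and -1.78 ± 0.34 (edgeR adjusted p = 0.00329 and 0.00754), and -1.57 and -1.68 without gel library 3.

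Further genes of fuel use and matrix control fell. Ppp1r3c, which targets a phosphatase to glycogen, held 34.0, 72.2, 69.9 and 67.0 CPM against 388, 472, 669 and 551 CPM, the log2 fold change being -3.10 ± 0.26 (edgeR adjusted p = 0.000259; -3.19 without gel library 3). Gel library 1 was the lowest, and all 4 were far under the uninjured range. Plin4, a lipid droplet protein, fell by a log2 fold change of -2.08 ± 0.30, Ucp3, a mitochondrial uncoupling protein, by -1.73 ± 0.26, and Pdk4, a kinase that shuts pyruvate dehydrogenase, by -2.67 ± 0.53. Ucp3, Pdk4, Ppard and Ppargc1a were the 4 genes of 26 on the fatty acid oxidation list that fell, and none rose (9 fell without gel library 3, left-out range 2). For comparison, 10.4% of all genes fell, and 19.8% without gel library 3. Ppargc1a in gel library 3, at 32.1 CPM, was inside the uninjured range of 29.0 to 40.3 CPM. These are regulators and a carrier, while enzymes of the pathway such as Acadvl and Hadha did not pass the test.

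Timp3 and Timp4, inhibitors of matrix proteases, also fell. Timp4 was at 23.1, 6.01, 12.6 and 7.92 CPM in the gel libraries and at 66.5, 66.3, 66.1 and 64.7 CPM in the uninjured ones, which were almost equal to one another. Every gel library was below that level (log2 fold change -2.42 ± 0.37, edgeR adjusted p = 0.0039; -2.46 without gel library 3), and Timp3 fell by -1.71 ± 0.19. Of 9 tendon genes 3, Fmod (-1.65 ± 0.16), Thbs4 (-0.64 ± 0.15) and Chad (-1.83 ± 0.42), fell, with and without gel library 3, and Tnmd and Scx did not pass the test. Odf3l2, a gene named for outer dense fibres of sperm tails, fell from 77.7, 68.3, 119 and 73.8 CPM in the uninjured libraries to 0.707, 0.839, 2.56 and 0.660 CPM with gel, a log2 fold change of -6.20 ± 0.43.

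Of the core clock genes and their outputs, 7 of 18 fell and none rose (9 without gel library 3, left-out range 4 to 7). Among all genes 10.4% fell, and 19.8% without gel library 3. Per2, a repressor of the clock, held 15.4, 11.1, 19.97 and 14.7 CPM in the gel libraries and 35.3, 40.7, 37.8 and 38.3 CPM in the uninjured ones (log2 fold change -1.32 ± 0.16, edgeR adjusted p = 0.00103). Hlf, an output factor, fell by -1.25 ± 0.27. Dbp, another output factor, did not pass the test (0.10 ± 0.21), nor did the activators Arntl and Clock. CACGTG, the clock's E-box, lay in 5 of the 15 clock genes with a listed promoter (33.3%) against 8.09% of all genes, and the D-box TTANGTAA in 1 of 15 (6.67%) against 2.72%.

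Genes of newly forming fibres rose in all 4 gel libraries. Of 16 genes on the embryonic and regenerating fibre list, 14 rose and 1, Xirp1, fell, where 12.2% of all genes rose and 10.4% fell. The median log2 fold change of the list was 2.24. In the fit without gel library 3, 14 rose and none fell (Xirp1 had an adjusted p of 0.0502). Gel library 3 was above the uninjured range for 11 of the 16, and its list level of 1.36 was under the 1.70 to 2.69 of the other gel libraries and above the -0.33 to 0.25 of the uninjured ones.

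Myh3, the embryonic myosin heavy chain, held 34.6, 67.2, 22.4 and 93.0 CPM in the gel libraries and 4.59, 9.44, 5.91 and 6.72 CPM in the uninjured ones. The lowest of the gel libraries was the third, still more than 2-fold above the highest uninjured library. The log2 fold change was 3.03 ± 0.47 (edgeR adjusted p = 0.00476), or 3.27 ± 0.37 without gel library 3 (adjusted p = 0.000297), and the PBS libraries were at 5.25 to 13.4 CPM. Myh8, the neonatal myosin, rose by 2.94 ± 0.56, and Actc1, the cardiac actin that immature fibres use, by 2.05 ± 0.19.

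Igf2, a growth factor of fetal tissue and of regenerating fibres, was at 319, 649.9, 358 and 676 CPM in the gel libraries against 40.0, 36.5, 38.9 and 55.2 CPM in the uninjured ones and 40.8 to 93.7 CPM with PBS. Gel libraries 1 and 3 lay near each other, as did 2 and 4, and all were several times above the uninjured level. The log2 fold change was 3.55 ± 0.28 (edgeR adjusted p = 0.000172; 3.67 ± 0.27 without gel library 3, adjusted p = 1.41e-05). H19, a noncoding RNA from the same imprinted cluster, rose by 2.05 ± 0.20, again with gel library 3 inside the gel range.

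Several genes that commit myoblasts to differentiate and to fuse rose in all 4 gel libraries. Mymk encodes myomaker, a membrane protein needed for fusion. It held 17.3, 26.3, 21.6 and 28.4 CPM in the gel libraries, 1.41, 0.736, 0.413 and 1.29 CPM in the uninjured ones and 1.28 to 9.64 CPM with PBS. Gel library 3 lay between the other gel libraries (log2 fold change 4.58 ± 0.32, edgeR adjusted p = 0.000123; 4.60 ± 0.30 without it, adjusted p = 7.78e-07). Myog, whose promoter is printed above with E-boxes, held 28.1, 30.2, 18.2 and 49.2 CPM against 5.77, 3.31, 2.61 and 2.91 CPM, a log2 fold change of 3.10 ± 0.35 (edgeR adjusted p = 0.00103). It was 3.27 ± 0.29 without gel library 3, the lowest gel library for this gene. Mymx, the second fusion protein, and Mamstr, a coactivator of myogenic factors, also rose (2.52 ± 0.82 and 2.10 ± 0.16). Myod1 did not pass the test (0.19 ± 0.32), and on the myogenic list of 14 genes 5 rose and 1, Dok7, fell (5 and 4 without gel library 3, left-out range of the rises 3 to 4).

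On the list of 15 satellite cell markers 3 rose and 1 fell, where 12.2% of all genes rose and 10.4% fell. Vcam1 (1.76 ± 0.40), Megf10 (1.85 ± 0.29) and Peg3 (1.07 ± 0.18) were the rises and Hey1 the fall (left-out range of the falls 0 to 2). Without gel library 3, 5 rose and 2 fell, where 21.1% of all genes rose and 19.8% fell. Pax7, the defining factor of these cells, was at 4.77, 3.03, 2.08 and 3.78 CPM in the gel libraries and 2.36, 0.736, 1.38 and 2.78 CPM in the uninjured ones. The groups overlapped through gel library 3, and the log2 fold change was 0.91 ± 0.41 (edgeR adjusted p = 0.13). Without gel library 3 it was 1.07 ± 0.38 and passed the test (edgeR adjusted p = 0.0399). Tissue RNA cannot tell more cells of a type from more RNA per cell, here and in all results that follow.

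**Figure D3:**
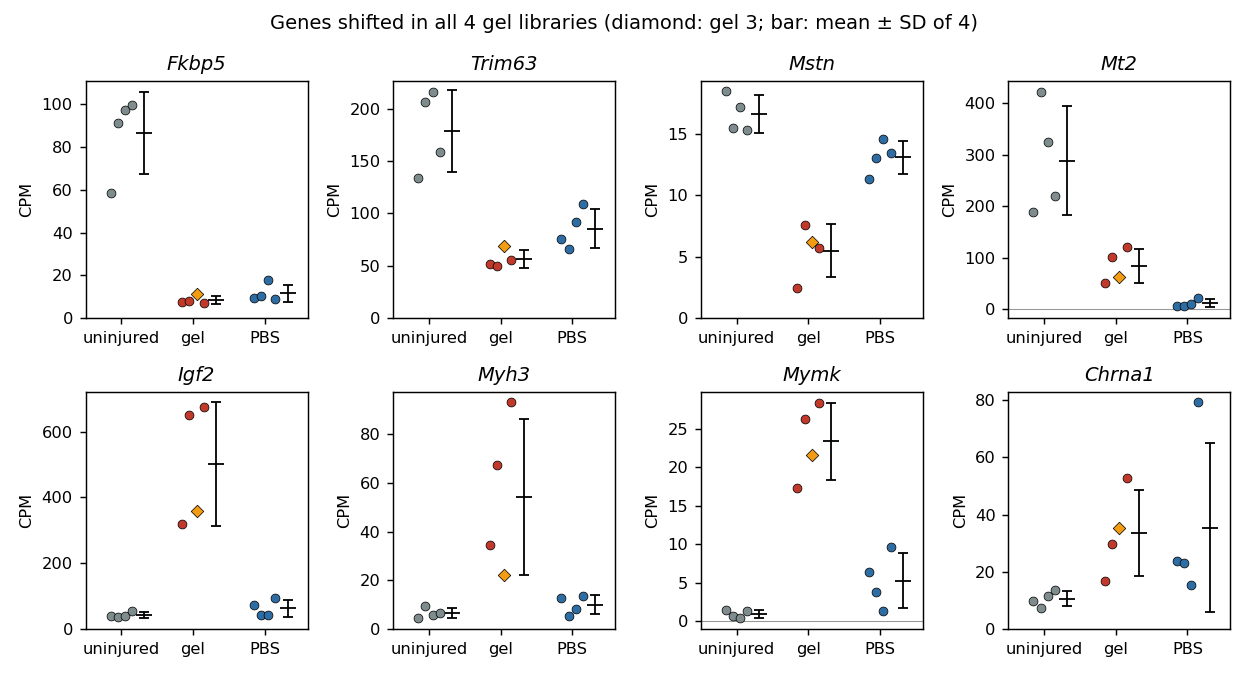
CPM of 8 genes in each uninjured, gel and PBS library, with the mean and SD of each group of 4 as a bar and gel library 3 as a diamond. In each panel all 4 gel libraries lie outside the range of the 4 uninjured libraries, below it for Fkbp5, Trim63, Mstn and Mt2 and above it for Igf2, Myh3, Mymk and Chrna1.

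Parts of the nerve-muscle synapse rose too. Of 14 neuromuscular junction genes, 8 rose and 2 fell, with gel library 3 and without it, and the groups did not overlap for 11. Among all genes tested 12.2% rose, 10.4% fell and 23.7% did not overlap, and without gel library 3 21.1% rose and 19.8% fell. In 10 of the 14 gel library 3 was above the uninjured range. All 5 receptor subunit genes measured rose: Chrna1, Chrnb1, Chrnd, the adult subunit Chrne and the fetal subunit Chrng. Chrna1 held 16.6, 29.7, 35.1 and 52.7 CPM in the gel libraries and 9.78, 7.36, 11.6 and 13.6 CPM in the uninjured ones, with gel library 1 close above them. Its log2 fold change was 1.67 ± 0.33 (edgeR adjusted p = 0.00888; 1.63 without gel library 3), and the PBS libraries spread from 15.4 to 79.3 CPM.

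Chrng was low, at 2.12, 5.36, 3.18 and 9.06 CPM in the gel libraries and 0.471, 0.859, 0 and 0.517 CPM in the uninjured ones, and rose by 3.39 ± 0.68 (edgeR adjusted p = 0.0085). Chrnb1 rose by 1.00 ± 0.16, Chrnd by 1.34 ± 0.27 and Chrne by 0.79 ± 0.20. Ache, the acetylcholinesterase that ends each signal, was at 135, 147, 189 and 130.4 CPM against 66.7, 64.1, 73.7 and 71.4 CPM, highest in gel library 3 (log2 fold change 1.12 ± 0.14, edgeR adjusted p = 0.00103; 0.98 without gel library 3). In contrast, Prima1, a protein that anchors acetylcholinesterase to membranes, held 0.353, 0.280, 0.611 and 0.220 CPM in the gel libraries and 8.24, 6.26, 5.71 and 5.04 CPM in the uninjured ones. It was all but lost in each gel library, a log2 fold change of -4.14 ± 0.35 (edgeR adjusted p = 0.000172), and lay at 1.81 to 3.55 CPM with PBS. Musk and Rapsn did not pass the test. On the denervation list, which overlaps with the lists above, 6 of 13 rose and none fell, namely Myog, Chrna1, Chrng, Ncam1, Hdac9 and Sln (2.34 ± 0.56). With gel library 3 left out, 7 rose and 1 fell.

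The picture was different for immune genes, where gel libraries 1, 2 and 4 were far above the uninjured ones and gel library 3 was much nearer to the uninjured ones. Of 23 macrophage markers, 21 rose and none fell, against 12.2% of all genes tested that rose, with a median log2 fold change of 4.12 (4.50 without gel library 3, when 21 rose again). The list level was 3.69 to 4.38 in gel libraries 1, 2 and 4, 0.85 in gel library 3 and -0.58 to 0.62 in the uninjured libraries. In 12 of the 23 gel library 3 was above the uninjured range. Cd163 and Lyve1, both markers of resident macrophages, did not pass the test, while Folr2, also found on resident macrophages, rose (2.66 ± 0.44).

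Adgre1, the F4/80 antigen of mouse macrophages, held 11.1, 20.1, 1.83 and 25.1 CPM in the gel libraries and 1.06, 0, 0.688 and 0.388 CPM in the uninjured ones. Above the uninjured range, gel library 3 was nevertheless far below the other gel libraries. The log2 fold change of 4.75 ± 0.96 (edgeR adjusted p = 0.0125) became 5.10 ± 0.56 without gel library 3 (adjusted p = 0.000179). C1qa, a subunit of the complement starter C1q, was at 98.9, 92.0, 11.5 and 112 CPM against 9.89, 4.78, 5.09 and 7.37 CPM, a log2 fold change of 3.53 ± 0.66 with gel library 3 and 3.87 ± 0.22 without it (edgeR adjusted p = 0.0101 and 6.41e-07).

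Genes of macrophages that take up lipid and debris hold 3 of the 10 largest rises that the naming rule takes, Trem2, Gpnmb and Atp6v0d2. Trem2, a receptor for lipids and dying cells, held 52.6, 97.4, 1.95 and 92.2 CPM in the gel libraries and 0.824, 0.368, 0.275 and 0.776 CPM in the uninjured ones. Gel library 3 was above the uninjured range and far below the other gel libraries. The log2 fold change was 6.74 ± 1.19 (edgeR adjusted p = 0.00818) with that library and 7.12 ± 0.33 without it (adjusted p = 3.56e-07). Gpnmb, a membrane glycoprotein of such cells, was at 206, 788, 8.43 and 818 CPM against 4.83, 2.09, 2.61 and 2.59 CPM, a log2 fold change of 7.22 ± 1.34 (edgeR adjusted p = 0.00954; 7.61 ± 0.66 without gel library 3). Gel library 1 was several times below gel libraries 2 and 4 here. With limma voom on the 8 libraries, Trem2, Gpnmb and Adgre1 did not pass (adjusted p = 0.235, 0.0699 and 0.114), and the macrophage count fell from 21 to 9.

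For Lgals3, the lectin galectin-3, gel library 3, at 51.5 CPM, was also clearly above the uninjured 7.76 to 8.59 CPM. Its other gel libraries held 227 to 636 CPM (log2 fold change 5.55 ± 0.78, edgeR adjusted p = 0.00388; 5.89 ± 0.38 without gel library 3). Apoe, the lipid carrier apolipoprotein E, held 1761, 1539, 109.7 and 2382 CPM against 100.2, 64.0, 78.2 and 77.8 CPM and rose by 4.18 ± 0.80 (4.55 ± 0.19 without gel library 3). On the list of 16 lipid-associated macrophage genes 11 rose and none fell, and without gel library 3 it was 15 of 17, while limma voom on 8 libraries called 4.

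Other genes of phagocytes rose in the same libraries. Of 15 genes of Fc receptor and ITAM signalling, which bind antibody-coated targets, 14 rose, and Syk, the 1 that did not pass, did so without gel library 3 (left-out range 8 to 11). All 6 genes of the NADPH oxidase, which makes the oxidative burst, rose in both fits (none with limma voom on 8 libraries, which called 2 of the Fc receptor genes), Cybb by 4.88 ± 0.97 and 5.25 ± 0.30 without gel library 3. Of 24 lysosomal hydrolases 16 rose (23 without gel library 3, left-out range 7 to 16, 9 with limma voom), such as the proteases Ctss (6.29 ± 1.11), Ctsb (1.46 ± 0.28) and Lgmn (2.21 ± 0.37). Of 16 proton pump subunits 4 rose, among them Atp6v0d2, the isoform of macrophages and osteoclasts (7.10 ± 1.25), and Atp6v1a, found in all cells (0.97 ± 0.19), and 6 rose without gel library 3 (left-out range 2 to 5).

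Toll-like receptors and their adaptors rose in 5 of 8 genes, Tlr2 by 2.31 ± 0.42, and in 12 of 12 tested without gel library 3 (left-out range 2 to 4, 3 with limma voom). Here, and in every list with more genes tested without gel library 3, the added genes could enter through gel libraries 1, 2 and 4 alone. Their rises therefore say little by themselves. Of 16 complement genes 10 rose (12 without gel library 3), among them C3ar1, the receptor for C3a (6.27 ± 1.22), and Cd55, which shields cells from complement (0.99 ± 0.20). Of 12 chemokine genes 6 rose, such as the monocyte attractant Ccl2 (4.22 ± 1.05), and Ccl11 fell. In the fit without gel library 3, 14 of 17 rose, while the left-out range was 3 to 5 and limma voom called 1.

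Antigen presentation through MHC class II rose in 8 of 9 genes, and in 9 of 9 without gel library 3, but in 4 to 6 when 1 other library was left out. H2-Aa, a chain of the class II molecule, held 192, 201, 26.3 and 249.96 CPM against 25.6, 18.03, 16.6 and 25.7 CPM in the uninjured libraries. The value of gel library 3 was just above the highest uninjured library, and the log2 fold change was 2.96 ± 0.61 (edgeR adjusted p = 0.0136) with it and 3.30 ± 0.17 (adjusted p = 9.05e-08) without it.

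Interferon-induced and MHC class I genes went further apart: gel library 3 was below the uninjured libraries while the other 3 were above. Over 22 interferon-response genes, the list level was 1.58 to 1.85 in gel libraries 1, 2 and 4, -0.76 in gel library 3 and -0.34 to 0.65 in the uninjured libraries. For 14 of the 22 gel library 3 was below the uninjured range, and for none was it above. With it, 5 rose and none fell, while without it 20 rose, and without any other library except uninjured library 1 only 1 did. Over 12 MHC class I and immunoproteasome genes the levels were 0.94 to 0.98, -0.49 and -0.12 to 0.12 in the same order. There, 1 gene, Tap1, passed with gel library 3 (1.03 ± 0.33, edgeR adjusted p = 0.0494), a call lost in each of the 7 fits that left out 1 other library (adjusted p = 0.0851 to 0.127) and with limma voom (0.125), and 11 rose without gel library 3.

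Oasl2, an interferon-induced protein of the oligoadenylate synthetase family, was at 52.5, 70.2, 8.67 and 61.2 CPM in the gel libraries and 15.7, 9.08, 7.98 and 7.63 CPM in the uninjured ones. There, gel library 3 was inside the uninjured range, and the log2 fold change was 2.25 ± 0.59 (edgeR adjusted p = 0.0301) with it and 2.58 ± 0.24 (adjusted p = 2.18e-05) without it. B2m, the light chain of class I molecules, was at 687, 727, 153 and 647 CPM against 295, 262, 257 and 314 CPM, so that gel library 3 was below every uninjured library. Its log2 fold change of 0.97 ± 0.40 did not pass the test (edgeR adjusted p = 0.114) and did without gel library 3 (1.27 ± 0.11, adjusted p = 2.23e-06). Ifit1, Isg15 and Oas1a, whose promoters are printed above, had log2 fold changes of 1.45 ± 0.47, 1.5 ± 0.60 and 2.84 ± 0.86. Only Oas1a of these 3 passed with gel library 3, and all 3 passed without it (1.74, 1.85 and 3.19). With gel library 3 kept and 1 other library left out, the edgeR adjusted p of Oasl2 was 0.0402 to 0.0819 and passed in 1 of 7 cases.

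Few genes of other immune lineages had enough reads to be tested. Only 1 of the T and NK cell genes listed had enough reads to be tested, and it did not pass. Without gel library 3, 5 of 5 tested rose, and 2 of 4 B cell genes. The genes added to these lists in that fit could enter through gel libraries 1, 2 and 4 alone, so their rises say little by themselves. Of 4 dendritic cell genes Itgax (3.91 ± 0.72) and Xcr1 (3.48 ± 0.78) rose, of 4 mast cell genes none passed (5 of 6 and 1 of 4 rose without gel library 3), and of the 2 neutrophil genes tested Csf3r rose (3.60 ± 0.85) and Lcn2, also a glucocorticoid target, fell (-1.97 ± 0.48), although each call was lost in several left-out fits. Of the genes that the naming rule takes, 5 had no read in any uninjured library. Cd5l, an apoptosis inhibitor of macrophages, had 84, 168, 0 and 269 reads in gel libraries 1 to 4, which put the 4 libraries together at least 134-fold higher than a floor of 3 reads over the uninjured group, and gel libraries 1, 2 and 4 at least 167-fold. On the same floor Ccl3, a chemokine, was at least 98.2-fold and 123-fold higher, Bcl2a1b, a survival factor, at least 55.3-fold and 67.8-fold, Lrrc15, a protein of activated fibroblasts, at least 45.2-fold and 54.0-fold, and Serpina3g, a serpin of immune cells, at least 68.4-fold and 85.4-fold. Like Cd5l, Ccl3 and Serpina3g had no read in gel library 3, where Bcl2a1b had 4 reads and Lrrc15 had 8. Cd5l, Ccl3 and Bcl2a1b were not tested with all 8 libraries. The naming rule took them as largest rises without gel library 3, so their large ratios follow in part from that choice.

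**Figure D4:**
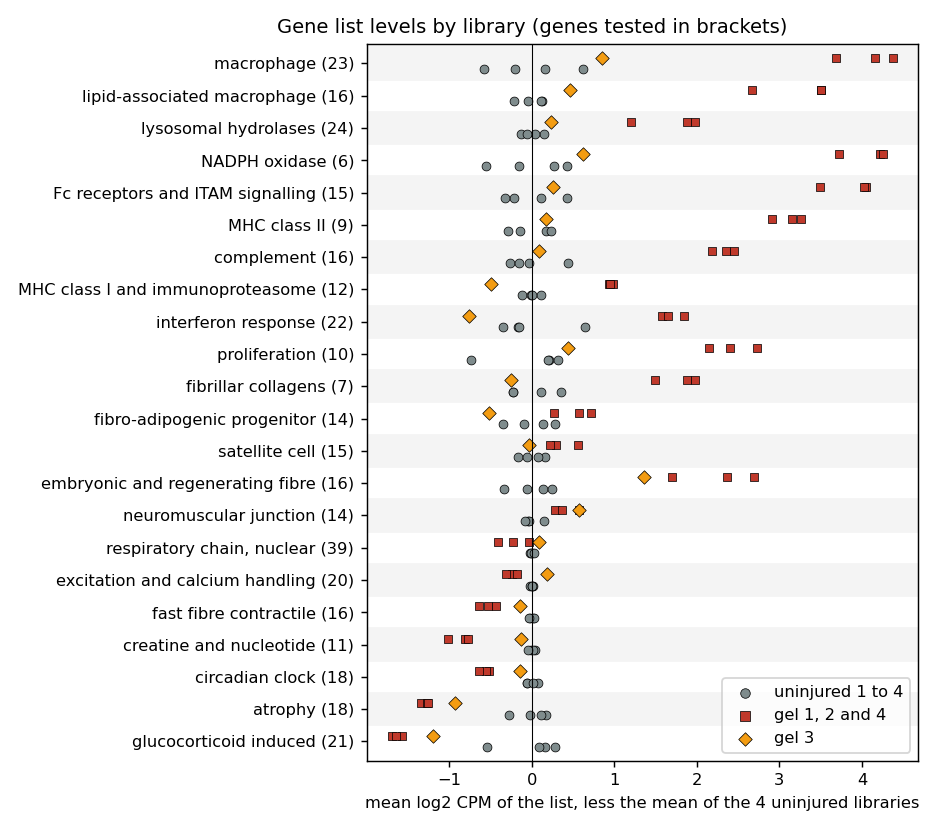
Mean log2 CPM of 22 gene lists in each library, less the mean of the 4 uninjured libraries, with gel library 3 as a diamond and the number of genes tested in brackets. For the glucocorticoid, atrophy and embryonic fibre lists gel library 3 lies on the side of the other gel libraries, while for macrophage, MHC class II and fibrillar collagen lists it lies near the uninjured libraries and for interferon and MHC class I lists below them.

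Matrix genes followed the same split. Of 7 fibrillar collagen genes 5 rose (6 without gel library 3), while the groups overlapped in all 7, and in 1 of 7 without gel library 3. Leaving out 1 other library, with gel library 3 kept, brought the count of 5 to between 0 and 3. Col1a1, the main chain of type I collagen, held 1876, 1492, 231 and 1725 CPM in the gel libraries and 341, 232, 171 and 250.31 CPM in the uninjured ones. Inside the uninjured range lay gel library 3, and the log2 fold change of 2.42 ± 0.58 (edgeR adjusted p = 0.0212) became 2.75 ± 0.20 without it (adjusted p = 2.47e-06). Col3a1, the chain of type III collagen, was at 922, 795, 136 and 1073 CPM against 214, 119, 122 and 185 CPM (2.19 ± 0.56, edgeR adjusted p = 0.027; 2.52 ± 0.21 without gel library 3). With gel library 3 kept and 1 other library left out, the adjusted p spread from 0.0391 to 0.0631 for Col1a1 and from 0.0486 to 0.0779 for Col3a1, highest without gel library 4.

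Postn, a matrix protein of remodelling tissue, was at 140.4, 136, 9.40 and 279 CPM in the gel libraries and 15.1, 7.48, 7.84 and 11.2 CPM in the uninjured ones, with gel library 3 again among the latter (log2 fold change 3.76 ± 0.86, edgeR adjusted p = 0.019; 4.13 ± 0.36 without it). Of 22 proteoglycan and matricellular genes, 6 rose, such as Bgn (1.70 ± 0.36) and Vcan (1.87 ± 0.43), and 4 fell, namely Fmod, Prelp, Thbs4 and Ccn2. Without gel library 3, 12 rose and 4 fell, and the left-out ranges were 2 to 4 rises and 2 to 4 falls. Mmp14, a membrane-bound protease that cuts collagen, held 88.6, 88.8, 13.6 and 118 CPM against 13.8, 16.3, 11.8 and 11.6 CPM (2.53 ± 0.57, edgeR adjusted p = 0.0181; 2.86 ± 0.15 without gel library 3). Timp1, unlike the other inhibitors named above, rose (1.99 ± 0.35). Of 12 basement membrane genes none rose and Lama5 fell (left-out range 0 to 1), while without gel library 3, 6 rose and 1 fell. Of 14 markers of fibro-adipogenic progenitors, the muscle's fibroblast-like cells, none rose and Ly6a and Gsn fell (left-out range 0 to 2). Without gel library 3, 7 rose and 2 fell, where 21.1% of all genes rose and 19.8% fell. At an unadjusted p under 0.05, 2 basement membrane and 3 progenitor genes rose with edgeR on 8 libraries, the same numbers that DESeq2 called, and limma voom called none. Leaving out 1 library other than gel library 3 gave an edgeR adjusted p of up to 0.0550 for Postn and 0.0532 for Mmp14.

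Genes of dividing cells rose in gel libraries 1, 2 and 4. Of 10 proliferation genes 7 rose, and without gel library 3 it was 14 of 16. Mki67, a marker of cycling cells, held 15.8, 23.3, 1.83 and 21.5 CPM in the gel libraries and 1.06, 2.09, 0.550 and 1.81 CPM in the uninjured ones, gel library 3 being inside the uninjured range. Its log2 fold change was 3.50 ± 0.75 (edgeR adjusted p = 0.0149), or 3.84 ± 0.31 without gel library 3 (adjusted p = 3.2e-06). With limma voom on 8 libraries Mki67 did not pass (adjusted p = 0.113), and 2 proliferation genes did. Of 16 DNA replication genes 5 rose, such as the helicase subunit Mcm5 (2.14 ± 0.48) and the nucleotide reductase subunit Rrm2 (1.91 ± 0.52), against 11 of 18 without gel library 3 (left-out range 2 to 6, 2 with limma voom).

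In the IGF axis, Igf1 parted from Igf2. Igf1, the main growth factor for muscle, was at 58.5, 62.6, 11.8 and 59.6 CPM in the gel libraries and 10.8, 8.83, 8.80 and 9.31 CPM in the uninjured ones. Gel library 3 was just above the uninjured range, while its Igf2 was several times above it. Igf1 had a log2 fold change of 2.35 ± 0.47 (edgeR adjusted p = 0.0112) and 2.65 ± 0.12 without gel library 3 (adjusted p = 1.47e-08). Igf2r and Irs1 rose as well, and the insulin receptor Insr (-0.53 ± 0.13) and its adaptor Irs2 (-0.85 ± 0.22) fell. On this list of 12 genes 4 rose and 2 fell, with left-out ranges of 2 to 4 and 0 to 3. On the mTOR and insulin signalling list 7 of 18 fell and none rose (13 fell without gel library 3, left-out range 4 to 6), among them Mtor (-0.39 ± 0.11) and Akt2 (-0.70 ± 0.19).

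**Figure D5:**
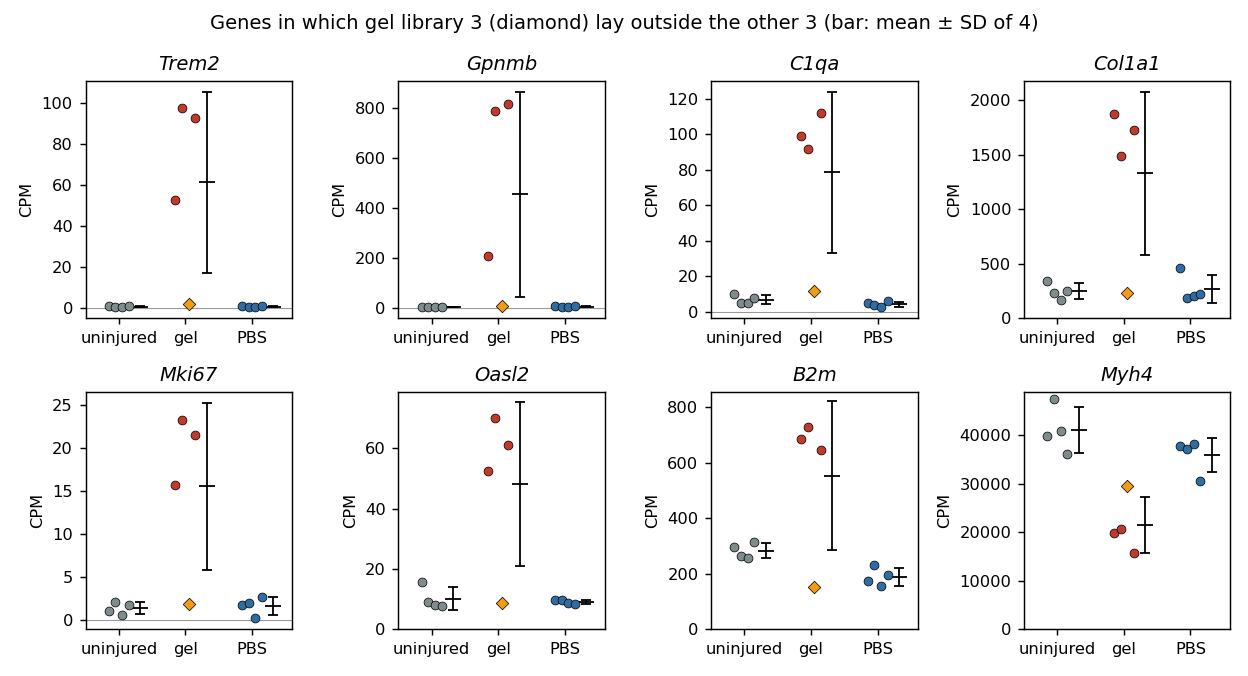
CPM of 8 genes in each uninjured, gel and PBS library, with the mean and SD of each group of 4 as a bar and gel library 3 as a diamond. Gel library 3 lies outside the range of the other 3 gel libraries in every panel, lower for Trem2, Gpnmb, C1qa, Col1a1, Mki67 and Oasl2, lower than all uninjured libraries too for B2m, and between the groups for Myh4.

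Genes of the mature fast fibre fell, most in gel libraries 1, 2 and 4 and less in gel library 3. Of 16 fast contractile genes 9 fell and 1, Mybph, rose, with a median log2 fold change of -0.49. With gel library 3 left out, 12 fell and 1 rose, with a median of -0.64. With gel library 3 kept and gel library 4 or an uninjured library left out, as few as 5 fell. Myh4, the myosin heavy chain of the fastest fibres, held 19837, 20679, 29616 and 15772 CPM in the gel libraries and 39829, 47442, 40924 and 36100.1 CPM in the uninjured ones. Gel library 3 lay between the other gel libraries and the uninjured ones (log2 fold change -0.94 ± 0.20, edgeR adjusted p = 0.0089; -1.15 ± 0.14 without it, adjusted p = 3.09e-05). Actn3, the Z-disc protein of fast fibres, was at 4246, 4390.2, 6073 and 3169 CPM against 9656, 10425, 9245 and 8497 CPM, in the same order (-1.08 ± 0.19, edgeR adjusted p = 0.00451; -1.28 ± 0.14 without gel library 3). Myh1, the myosin of the next fastest fibres, did not pass the test (0.07 ± 0.15). The PBS libraries were at 30578 to 38214 CPM for Myh4.

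Among 20 sarcomere and Z-disc genes 6 fell, such as Neb (-0.58 ± 0.16) and Tcap (-0.99 ± 0.27), and 3 rose, Actn2 (0.86 ± 0.15), Lmod3 and Csrp3. With gel library 3 left out, 12 fell and 3 rose. Des, the intermediate filament of muscle, did not pass (0.01 ± 0.14). Of 20 genes of excitation and calcium release 5 fell, among them Ryr1, the calcium release channel (-0.55 ± 0.16), and Jph2, which holds the membranes at the release site (-0.71 ± 0.19), and Sln, an inhibitor of the calcium pump, rose. The range of the uninjured libraries was exceeded by gel library 3 for 11 of these 20, and without it 12 fell and 2 rose. With 1 other library left out, the sarcomere falls numbered 0 to 1 and the calcium falls 1 to 2.

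Some genes of energy metabolism fell. Ckm, muscle creatine kinase, held 9521, 8623, 11842 and 8502 CPM in the gel libraries and 18436, 17847, 16429 and 16437 CPM in the uninjured ones, with all gel libraries below (log2 fold change -0.85 ± 0.15, edgeR adjusted p = 0.0045; -0.98 ± 0.11 without gel library 3). Ckm was 1 of 6 genes of 11 on the creatine and nucleotide list that fell, with Ampd1 (-0.66 ± 0.15) and the polyamine enzymes Odc1 (-1.28 ± 0.23) and Smox (-1.48 ± 0.28), and none rose. Of 16 glycogen genes 4 fell (left-out range 1 to 2) and Stbd1 rose, and of 18 glycolysis genes Hk2, the hexokinase of mature muscle (-0.78 ± 0.22), and the lactate carrier Slc16a3 fell, a share close to the 10.4% of all genes, while Hk1, the common hexokinase, rose (0.73 ± 0.21; left-out range of the glycolysis falls 0 to 1). None of 39 nuclear genes of the respiratory chain passed the edgeR test in either direction, 1 being higher and 6 lower at an unadjusted p under 0.05, while DESeq2 called 2 falls and limma voom none. Without gel library 3, 11 of the 39 fell, 11 of the 16 glycogen genes fell and none rose, and 9 of 18 glycolysis genes fell. The rise of Stbd1 was thus not called then, and the left-out range of the glycogen rises was 0 to 1. Gel library 3 was above the uninjured range for 17 of the 39 respiratory chain genes.

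Slow fibre genes differed widely between the uninjured libraries. Of 12, Myoz2 (0.60 ± 0.14) and Casq2 (1.83 ± 0.26) rose and none fell, with and without gel library 3. Without uninjured library 4 the rises numbered 5, and with limma voom 4. Myh7, the slow myosin, was at 2.30, 0.746, 2.56 and 0.513 CPM in the gel libraries and 0.707, 3.56, 0.963 and 41.7 CPM in the uninjured ones. Uninjured library 4 was far above the rest, and the log2 fold change of -2.98 ± 1.35 did not pass the test (edgeR adjusted p = 0.148).

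More genes of protein breakdown and folding were called lower than higher, where 10.4% of all genes tested fell and 12.2% rose. Of 30 proteasome subunits 8 fell and none rose (16 fell without gel library 3), such as Psmd4 (-0.49 ± 0.13). Of 20 autophagy genes 5 fell, Gabarapl1 by -0.87 ± 0.14 and Sqstm1 by -0.76 ± 0.17, and without gel library 3, 10 fell and 2 rose. Of 20 genes of the unfolded protein response and ATF4 pathway 6 fell and 3 rose, of 20 heat shock genes Hspa8 and Hsf1 fell, and of 22 antioxidant genes 6 fell, Nqo1 by -1.10 ± 0.21, and 3 rose, the extracellular dismutase Sod3 by 1.46 ± 0.24. The falls numbered 6, 7 and 9 without gel library 3, when 19.8% of all genes fell. With all 8 libraries the median log2 fold changes were small, at -0.05, 0.09 and -0.12 in the same order. The share of heat shock genes that fell was near that of all genes, and 11 of the 20 were higher with gel. Left-out ranges were 3 to 5 falls and 1 to 2 rises for the unfolded protein response and 0 to 2 falls for heat shock. Leaving out 1 of the other libraries brought the proteasome falls to between 1 and 4.

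Few vessel and nerve markers passed the test with all 8 libraries. Of 14 endothelial genes Vwf (-1.02 ± 0.20) and Flt1 (-1.5 ± 0.35) fell and none rose, with and without gel library 3, while gel library 3 was below the uninjured range in 12 of the 14. Without gel library 1, 8 of the 14 fell, and without gel library 4, 1 did. Pecam1, the endothelial adhesion molecule, was at 93.0, 62.2, 38.7 and 68.8 CPM in the gel libraries and 96.7, 75.6, 76.7 and 86.0 CPM in the uninjured ones, gel library 3 being the lowest of all 8, and did not pass the test (edgeR adjusted p = 0.277). Of 11 mural and smooth muscle genes Rgs5 fell (-0.87 ± 0.27), a call lost without gel library 3 (edgeR adjusted p = 0.0814), when Abcc9 fell instead (-0.32). Without gel library 1, 4 of the 11 fell, and without each of the other libraries none did. Of 12 Schwann and nerve genes Ncam1, which regenerating fibres also make, rose (2.03 ± 0.21). Markers of blood and skin were tested to look for other tissue in the samples. Hemoglobin-pathway gene Alas2 did not pass, and of the 3 keratin genes tested the simple-epithelium keratins Krt8 and Krt18 rose, Krt18 from 0.589, 0.123, 0.138 and 0.517 to 6.12, 8.30, 3.54 and 14.96 CPM in the order of the libraries (4.56 ± 0.58, edgeR adjusted p = 0.00149). Krt8 had 2 reads in the uninjured libraries together and 290 in the gel libraries, a ratio of 112 with an exact 95% counting interval of 30.7 to 928. Krt10, a skin keratin, did not pass.

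Macrophage markers, which moved with the immune, matrix and proliferation lists, were not at the same level in all gel libraries: relative to the uninjured mean, the list level was 3.69 to 4.38 in 3 of them and 0.85 in gel library 3. Fibre genes fell most in the same 3 libraries where immune and matrix genes rose, and the part of a changed mix of cells in those falls was not tested. In gel library 3, with the lower macrophage level, the glucocorticoid and atrophy lists stood at -1.19 and -0.93 relative to the uninjured mean, against -1.69 to -1.57 and -1.34 to -1.25 in the other gel libraries.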

How the data were processed

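RNA from mouse tibialis anterior was sequenced in 12 libraries, of which 8 were compared. The deposited files hold raw read counts per gene symbol, without normalization, per the labels. The submitters' processing notes name STAR, edgeR and the build mm39. Of the counting program, the annotation and the use of strand the labels say nothing, so genes with near-identical copies or antisense partners may share reads.

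Groups were taken from the labels. The 8 libraries were fitted alone with edgeR 4.0.16 in R 4.3.3 (genes kept by filterByExpr, TMM scaling, robust quasi-likelihood F-test, Benjamini-Hochberg adjustment over all genes tested, threshold 0.05), and again without gel library 3. Fold changes and adjusted p-values are from this edgeR test unless another tool is named, and the SE was taken from the log2 fold change and its F statistic. CPM used the TMM library sizes, with PBS libraries scaled onto the same reference. List levels are means of log2 CPM with a prior count of 2. No pair of libraries of a group agreed within counting noise (chi-square of at least 6.50 per gene), and each was entered as 1 sample. This spread does not show whether libraries came from separate animals. Count intervals and the floor of 3 reads cover counting error only. The fitting procedure was tested on simulated data. The simulation gave both groups the spread of the uninjured libraries and held no outlying library. It therefore does not cover the wider spread of the gel libraries or the place of gel library 3.

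The members and the 74 gene lists were chosen with earlier results of these data known. Named genes are the 10 largest rises and falls, with and without gel library 3, whose groups do not overlap and whose average reaches 1 CPM. To these were added, from the fit of 8 libraries, the 10 smallest p among genes of that level, up to 4 called members of each list with the smallest p, and some genes fixed by name. Genes named outside this rule, Abcc9, Akt2, Apoe, B2m, Chrnd, Chrne, Des, Ifit1, Isg15, Mmp14, Mtor, Myh1, Mymx, Myod1, Nr3c1, Oas1a, Pecam1, Ryr1, Tgfb1 and Xirp1, and those mentioned without values, were chosen after their values were seen. Alternatives were DESeq2 1.42.0, limma 3.58.1 voom with and without sample weights, other scalings and filters, all 12 libraries in 1 fit, a replicate term and leaving out each library. Promoters were matched by symbol in RefSeq's table on GRCm38.p6, which lists 27025 genes. They are on another build than the counts, and no coordinates were converted.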

Additional observations from a re-analysis of the deposited data

Results flagged for a closer look

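In each group of 4 libraries, the level of every gene list and the log2 CPM of 37 genes were searched for an outlying library. Such a library had a gap to the nearest of the other 3 that exceeded Dixon's 95% critical value for the group's range. The log2 CPM took the same prior count as the list levels, and the values of single genes are printed below in CPM. Chance alone gives about 1 in 20 groups when they are independent and not picked by their values. Some lists share members, and the lists and some of the genes were chosen with these data known. The count below can therefore not be set against that rate. Of 222 groups tested, 31 held such a library, and in 25 of them it was gel library 3.

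Of these 25, 11 are lists of immune genes, in which gel library 3 was the lowest of the gel group. Relative to the uninjured mean on the log2 scale, it was at -0.62 for neutrophil, 0.33 for dendritic cell, -0.72 for cytokine, 0.09 for complement, 0.07 for Toll-like receptor, 0.26 for Fc receptor, 0.62 for NADPH oxidase, -0.76 for interferon, -0.49 for MHC class I, 0.18 for MHC class II and -0.35 for inflammasome genes. The Fc receptor list stood at 3.49 to 4.05 in the other gel libraries. For collagen processing enzymes gel library 3 was lowest at -0.29, and for the sarcomere list it was highest at 0.11.

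Single genes in gel library 3 were low in the same way, with Trem2 at 1.95 CPM, C1qa at 11.5, H2-Aa at 26.3, Apoe at 109.7, Igf1 at 11.8, Col1a1 at 231, Col3a1 at 136, Mmp14 at 13.6, Mki67 at 1.83, Oasl2 at 8.67 and B2m at 153 CPM. Fbxo32, at 92.6 CPM, was the 1 gene of the 37 for which gel library 3 was too high.

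In other libraries, uninjured library 3 was lowest for the proliferation list (-0.73) and the inflammasome list (-0.11) and highest for the only erythroid gene tested (0.41). Gel library 2 was highest for antioxidant genes (0.04). Fkbp5 was low in uninjured library 1 (58.4 CPM) and Ppp1r3c in gel library 1 (34.0 CPM).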

How the results depend on the processing

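Counts of called genes are given as rises, then falls, beside 1603 and 1371 with edgeR on 8 libraries. DESeq2 gave 2296 and 1557, limma voom 1042 and 1423, limma voom with sample weights 2690 and 2764, or 5454 in all (gel library 3 had a weight of 0.196), upper quartile scaling 1878 and 1001, no filter 1726 and 1111, and all 12 libraries 1951 and 1498. Without gel library 3 there were 2880 and 2712. Leaving out each library in turn gave 1587 to 5592 genes in all, 889 to 2880 rises and 629 to 2712 falls, so the counts rest on which libraries enter. Upper quartile scaling moved the median of all genes from -0.004 to 0.08.

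The falls of glucocorticoid-induced genes numbered 13 to 17 over all alternatives, those of atrophy genes 14 to 15, the rises of embryonic fibre genes 10 to 15 and of neuromuscular junction genes 6 to 9. Of 245 named genes, 56 calls were lost with limma voom, 62 without gel library 4, 64 without uninjured library 2 and 1 each without gel library 3 and with sample weights. Among the named genes only Dbp, which was not called, changed sign under these alternatives: -0.04 with sample weights and -0.01 without uninjured library 3, over -0.12 to 0.23 when each library was left out.

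The labels number the libraries 1 to 4 in each group. Deviations of libraries of the same number had correlations of 0.0653, -0.0561, 0.167 and 0.0755, where libraries of different number spanned -0.191 to 0.172. These values cannot decide whether the number pairs libraries, and it was not used as a pairing in the main fit. With the number as a replicate block, 1343 rose and 1275 fell, 2618 in all. Genes with few reads, such as most of those of lymphocytes, could not be tested at this depth with all 8 libraries.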

Other observations

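Other gene groups held a few changes. Of 11 Wnt antagonists and targets 4 rose and none fell (1 to 3 rose when 1 library other than gel library 3 was left out), among them Frzb, a secreted Wnt antagonist (1.21 ± 0.21), and Axin2, a target and feedback inhibitor (0.95 ± 0.24). In the myostatin and BMP list the ligand Bmp4 (-1.18 ± 0.27) and the target Id1 (-0.90 ± 0.18) fell beside Mstn. Smad3, which relays TGF-beta and myostatin signals, fell as well (-0.99 ± 0.16), while Tgfb1 rose (1.52 ± 0.45). Of the NF-kappaB list 6 genes rose (2 to 4 on leaving out 1 such library) and 1 fell. Among the rises were Tnfaip3, a feedback inhibitor of NF-kappaB (2.21 ± 0.46), and Nfkb2 (0.89 ± 0.15). Of the cytokine genes Il15, a factor that muscle fibres also make, rose (1.10 ± 0.22), and Il34, a ligand of the CSF1 receptor, fell (-1.14 ± 0.17), as did the oncostatin receptor gene Osmr (-1.42 ± 0.27).

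Tfrc, the transferrin receptor, held 110.2, 158, 148 and 160.4 CPM in gel libraries 1 to 4 and 59.4, 81.1, 86.7 and 80.4 CPM in the uninjured libraries (0.91 ± 0.16, edgeR adjusted p = 0.0045). Slc11a1, the phagosome metal carrier of macrophages, held 17.0, 46.4, 2.14 and 38.9 and 1.88, 1.78, 1.24 and 2.20 CPM, with gel library 3 near the uninjured level (3.88 ± 0.84, edgeR adjusted p = 0.0163; 4.24 without gel library 3). Among 30 cytosolic ribosomal protein genes only Rpl3 rose (0.98 ± 0.28), while Rpl3l, its muscle-specific paralog, fell (-0.60 ± 0.18), as did Rpl4 (-0.58 ± 0.14). Rpl3 held 51.2, 85.4, 34.7 and 98.4 CPM against 31.5, 35.0, 32.9 and 37.3 CPM and Rpl3l 455, 332, 577 and 352 against 656, 662, 647 and 642 CPM. In gel library 3, 21 of the 30 were below the uninjured range. The genes called here were also called without gel library 3. When 1 library other than gel library 3 was left out, Rpl3l lost its call in all 7 fits (edgeR adjusted p = 0.0547 to 0.102), Rpl3 in 6 and Axin2 in 3, and with limma voom Rpl3 (adjusted p = 0.0612) and Slc11a1 did not pass.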
